A study of Setaria italica with 18 samples.

Results

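Cytosolic ribosomal proteins are the protein parts of the ribosomes that translate nuclear mRNA. The 232 genes described here are those of the 29108 annotated genes in the deposited table whose description names a 60S ribosomal protein, a 40S ribosomal protein or a 60S acidic ribosomal protein. The transcriptomes came from leaves of foxtail millet (Setaria italica) seedlings, a C4 cereal. Leaves 2 and 3 of the seedling were taken from the salt-tolerant variety JK3 after 0, 12 and 24 h of treatment with diluted artificial seawater (J0, J12 and J24). They were likewise taken from the salt-sensitive variety B175 (B0, B12 and B24), with 3 biological replicates in each of the 6 groups and 18 libraries in all. The seedlings grew under a 12 h day and a 12 h night, so the leaves taken at 12 h and those taken at 0 and 24 h come from opposite phases of the day. Libraries of unstressed seedlings at 12 and 24 h were not analysed here, so the treatment, the time of day and the hours of growth cannot be told apart. Both varieties were treated alike. The p values rest on the spread between replicate libraries within groups, pooled over the 6 groups unless stated otherwise.

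A cytosolic ribosome has a small 40S subunit, which reads the mRNA, and a large 60S subunit, which forms the peptide bonds. Its proteins are assembled with the rRNA in the nucleolus, and in plants nearly every ribosomal protein has several gene copies that differ in level. The acidic proteins P0, P1, P2 and P3 form the stalk of the large subunit, which binds the elongation factors, and P3 is known from plants.

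Of the 232 genes, 124 were described as 60S proteins, 88 as 40S proteins and 9 as stalk proteins. These 221 genes carried 79 protein names, of which 43 belonged to the 60S subunit, 32 to the 40S subunit and 4 to the stalk. Only L26, P1 and P3 had a single gene, 37 names had 2 genes, and the most copies were the 9 of L40. The other 11 genes did not match the label cytosolic or were uncertain: 7 were described as mitochondrial (proteins L2, L5, L6 and L16) and 4 as L18a-like proteins. They are reported apart below. The number before the G in an identifier is the chromosome, and chromosome 2 held the most members, 51. Copies with similar sequences can share reads, so the level of a single copy is less certain than the sum of its protein name.

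The levels are FPKM (the fragments assigned to a gene, scaled by gene length and library size), so they can be compared between genes. The median member had a mean of 146 FPKM over the 18 libraries, against 9.34 FPKM for the median of the 23824 genes with a mean of at least 0.1 FPKM. Of the 232 members, 141 had a mean of at least 100 FPKM and 12 had a mean under 1 FPKM. A fragment was found in every library for 212 of them. The test covered 226 members, because 6 had a mean under 0.1 FPKM. These 6 were 1 copy each of S24, S27a, L40 and L8, and 1 copy each of L5 and L6 described as mitochondrial.

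The 5 members with the highest mean levels were L36-1 (Seita.3G217000) with 767 FPKM, L40-2 (Seita.5G156000) with 565 FPKM, S8 (Seita.7G057900) with 511 FPKM, L28-1 (Seita.3G162800) with 474 FPKM and L5-1 (Seita.5G413500) with 447 FPKM. L40 is made as a fusion with ubiquitin, and L5 binds the 5S rRNA. The gene for L36-1 had 360.5, 509 and 456 FPKM in J0, 1016, 1177 and 1056 FPKM in J12 and 614, 671 and 682 FPKM in J24. It had 443, 279 and 369 FPKM in B0, 1127, 1413 and 1273 FPKM in B12 and 1054, 630.0 and 686 FPKM in B24. In both varieties the 3 libraries at 12 h lay above every library at 0 h.

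The summed level of the 232 members was highest at 12 h in both varieties. The sum was 16490, 21440 and 18122 FPKM in J0, 53933, 49087 and 55360 FPKM in J12 and 31436, 33543 and 34672 FPKM in J24. It was 24169, 14892 and 18880 FPKM in B0, 58607, 66732 and 64435 FPKM in B12 and 48484, 25517 and 34229 FPKM in B24. As deposited, no library at 12 h overlapped a library at 0 or 24 h of its variety. The mean sum in J12 was 2.83 times that in J0, and the mean sum in B12 was 3.28 times that in B0. At 24 h the mean was 1.78 times that of 0 h in JK3 and 1.87 times that of 0 h in B175. As a share of all fragments on genes, the members took 2.38% to 2.62% in J12 against 0.785% to 1.02% in J0. In B175 they took 2.80% to 3.17% in B12 against 0.703% to 1.15% in B0.

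Other genes moved with this shift. The 100 most abundant genes of each library held 12.8% to 13.4% of the fragments in J12 against 22.3% to 25.6% in J0. The same share was 13.5% to 13.7% in B12 against 26.4% to 29.3% in B0. The median of all tested genes was also above 0 on the log2 scale at 12 h (0.37 in JK3 and 0.43 in B175). After median-ratio scaling, which brings the median of all genes to 0.01 in both varieties, the mean sum of the members in J12 was 1.90 times that in J0. On the same scale the mean in B12 was 2.10 times that in B0. After scaling, the sums at 12 and 24 h overlapped in B175 and did not in JK3. Replicate 1 of B24 had a scaled sum of 48099 FPKM, above the 46183.5 FPKM of replicate 1 of B12. In bulk leaves, more cells of a type and more RNA per cell cannot be told apart.

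**Figure D1:**
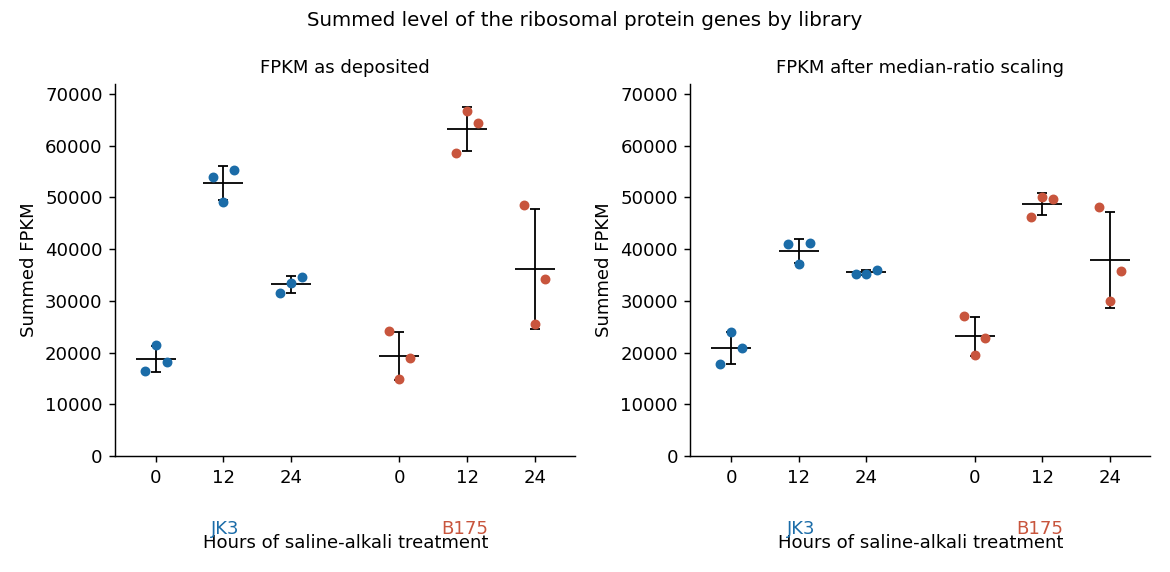
Summed FPKM of the 232 ribosomal protein genes in each library (points) with group means and SD (bars, n = 3), for JK3 and B175 at 0, 12 and 24 h, as deposited (left) and after median-ratio scaling (right). As deposited, the 12 h libraries lie at 49087 to 55360 FPKM in JK3 and 58607 to 66732 FPKM in B175, above all 0 h and 24 h libraries of the variety.

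At 12 h nearly all members were higher than at 0 h. A gene was called a DEG (differentially expressed gene) at an adjusted p under 0.05 and an absolute log2 fold change above 1, in a limma fit of log2(FPKM + 1) over all tested genes. In J12 vs J0, 196 of the 226 tested members were DEGs and higher, where 24% of all genes were. None was a DEG and lower, where 7.67% of all genes were. In B12 vs B0, 198 members were DEGs and higher, where 28.0% of all genes were, and none was a DEG and lower, where 9.81% of all genes were. By the adjusted p alone, 213 members were higher in JK3, against 41.9% of all genes, and 211 were higher in B175, against 45.8% of all genes. The median log2 fold change of the members was 1.54 in J12 vs J0, against 0.37 for all genes. In B12 vs B0 it was 1.71, against 0.43 for all genes.

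After median-ratio scaling the direction stayed and the size shrank. Then 106 members were DEGs and higher in J12 vs J0, where 12.7% of all genes were. In B12 vs B0 there were 124 DEGs that were higher, where 15.3% of all genes were. By the adjusted p alone, 193 members were higher and none lower in JK3, with a background of 23.1% of genes higher and 22.6% lower. In B175, 189 were higher and 3 lower, with a background of 26.9% higher and 26% lower. The 3 that were lower, chosen here after their values were seen, were an L4 copy (Seita.2G056200), an L19-1 copy (Seita.3G034600) and an L5 gene described as mitochondrial (Seita.9G026400), with scaled changes of -0.89, -0.71 and -0.41. The scaled median of the members was 0.97 in JK3 and 1.06 in B175.

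The 60S and 40S proteins moved by similar amounts. In J12 vs J0, 108 of the 122 tested 60S genes, 79 of the 86 tested 40S genes and 8 of the 9 stalk genes were DEGs and higher. Their median log2 fold changes were 1.52, 1.58 and 1.68. In B12 vs B0 the counts were 108 60S genes, 79 40S genes and all 9 stalk genes, with medians of 1.70, 1.75 and 1.71. The ratio of the summed FPKM of 60S to 40S genes stayed within 1.41 and 1.53 in the 18 libraries. It was 1.41 to 1.49 in J12 against 1.48 to 1.53 in J0, and 1.41 to 1.42 in B12 against 1.44 to 1.45 in B0. The ranges overlapped in JK3 and did not overlap in B175.

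**Figure D2:**
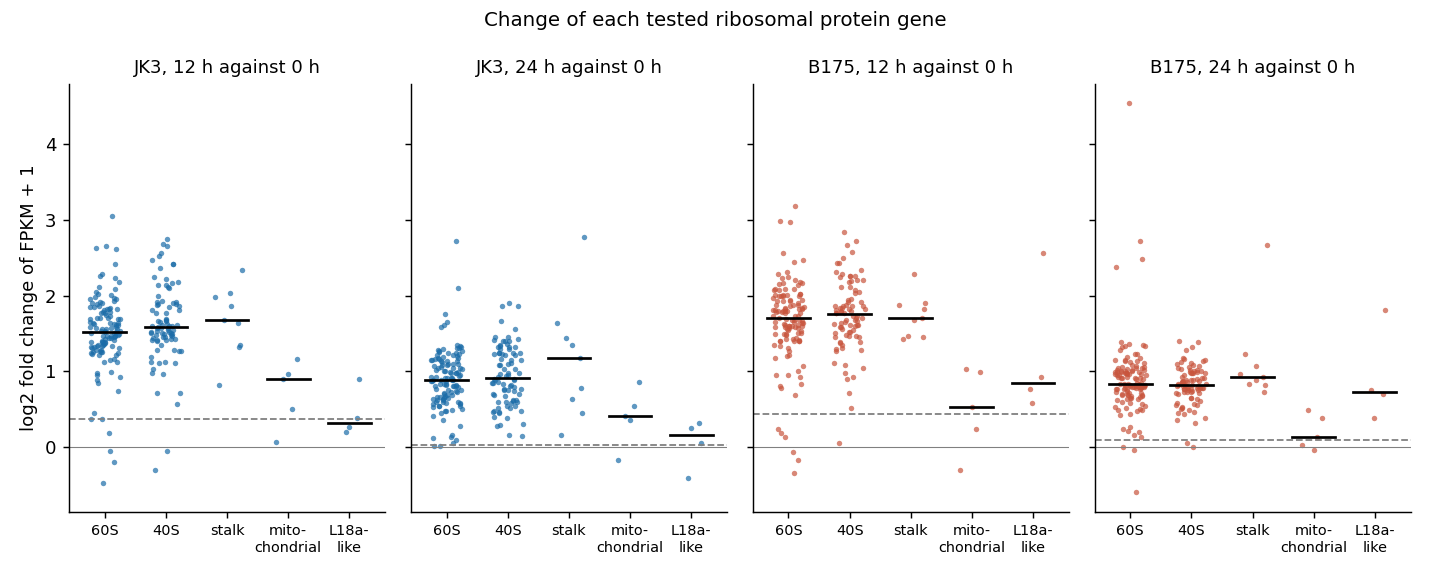
Log2 fold change of FPKM + 1 for each tested member (points), by described class, in J12 vs J0, J24 vs J0, B12 vs B0 and B24 vs B0. Black lines are class medians and the dashed line is the median of all tested genes. The 60S, 40S and stalk medians at 12 h lie between 1.52 and 1.75, while the medians of the genes described as mitochondrial and as L18a-like lie between 0.32 and 0.89.

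On the log2(FPKM + 1) scale, the largest changes at 12 h were in copies of modest level. L36-3 (Seita.5G376500), a copy of L36, had 70.6, 63.4 and 62.0 FPKM in J12 against 6.91, 5.67 and 8.63 FPKM in J0. In B175 it had 71.0, 96.7 and 76.3 FPKM in B12 against 11.5, 5.84 and 7.39 FPKM in B0. The log2 fold changes were 3.05 ± 0.37 (SE, adjusted p = 3.79e-06) in JK3 and 3.19 ± 0.37 (SE, adjusted p = 1.69e-06) in B175. Its abundant partner L36-1 changed by 1.30 ± 0.22 (SE, adjusted p = 9.63e-05) in JK3 and 1.82 ± 0.22 (SE, adjusted p = 2.31e-06) in B175. Both copies rose, and the less abundant copy had the larger value. This was not general: among 75 protein names with at least 2 copies above a mean of 1 FPKM, the lowest copy changed more than the highest in 48 names in J12 vs J0 and in 37 names in B12 vs B0.

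On the same scale, the other members with the largest rises were L7a, L17, S20 and S19 genes. L7a-2 (Seita.4G177300) had 99.8, 103 and 113 FPKM in B12 against 17.8, 8.86 and 11.99 FPKM in B0, a log2 fold change of 2.98 ± 0.27 (SE, adjusted p = 1.2e-07). L17 (Seita.6G112100), which lies near the exit of the peptide tunnel, had 75.3, 87.7 and 82.5 FPKM in B12 against 13.4, 7.04 and 9.18 FPKM in B0. Its log2 fold change was 2.97 ± 0.26 (SE, adjusted p = 8.81e-08). Genes were ranked by change only where the libraries of the compared groups did not overlap, so the lack of overlap here follows from the choice. S20 (Seita.4G023300), a protein of the head of the small subunit, had 90.9, 84.7 and 84.9 FPKM in J12 against 9.36, 14.1 and 13.1 FPKM in J0, a change of 2.75 ± 0.26 (SE, adjusted p = 2.82e-07). S19 (Seita.9G575800), also of the small subunit, had 81.3, 66.8 and 105 FPKM in J12 against 16.0, 13.7 and 7.81 FPKM in J0, a change of 2.69 ± 0.29 (SE, adjusted p = 1.4e-06). All 4 genes also rose at 12 h in the other variety, by 2.63 for L7a-2 and 2.66 for L17 in JK3 and by 2.26 for S20 and 2.67 for S19 in B175. This scale understates the change of low genes. An L40 copy (Seita.2G302900) with 149 recovered fragments in J12 and 0 in J0 was at least 48.7-fold higher in J12, against a floor of 3 fragments over the group, and did not pass after scaling (1.65 ± 0.79 SE, adjusted p = 0.102). An L4 copy (Seita.2G056800) with 37 in B12 and 0 in B0 was 12.5-fold higher in B12 against the same floor, with the 37 taken as observed.

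**Figure D3:**
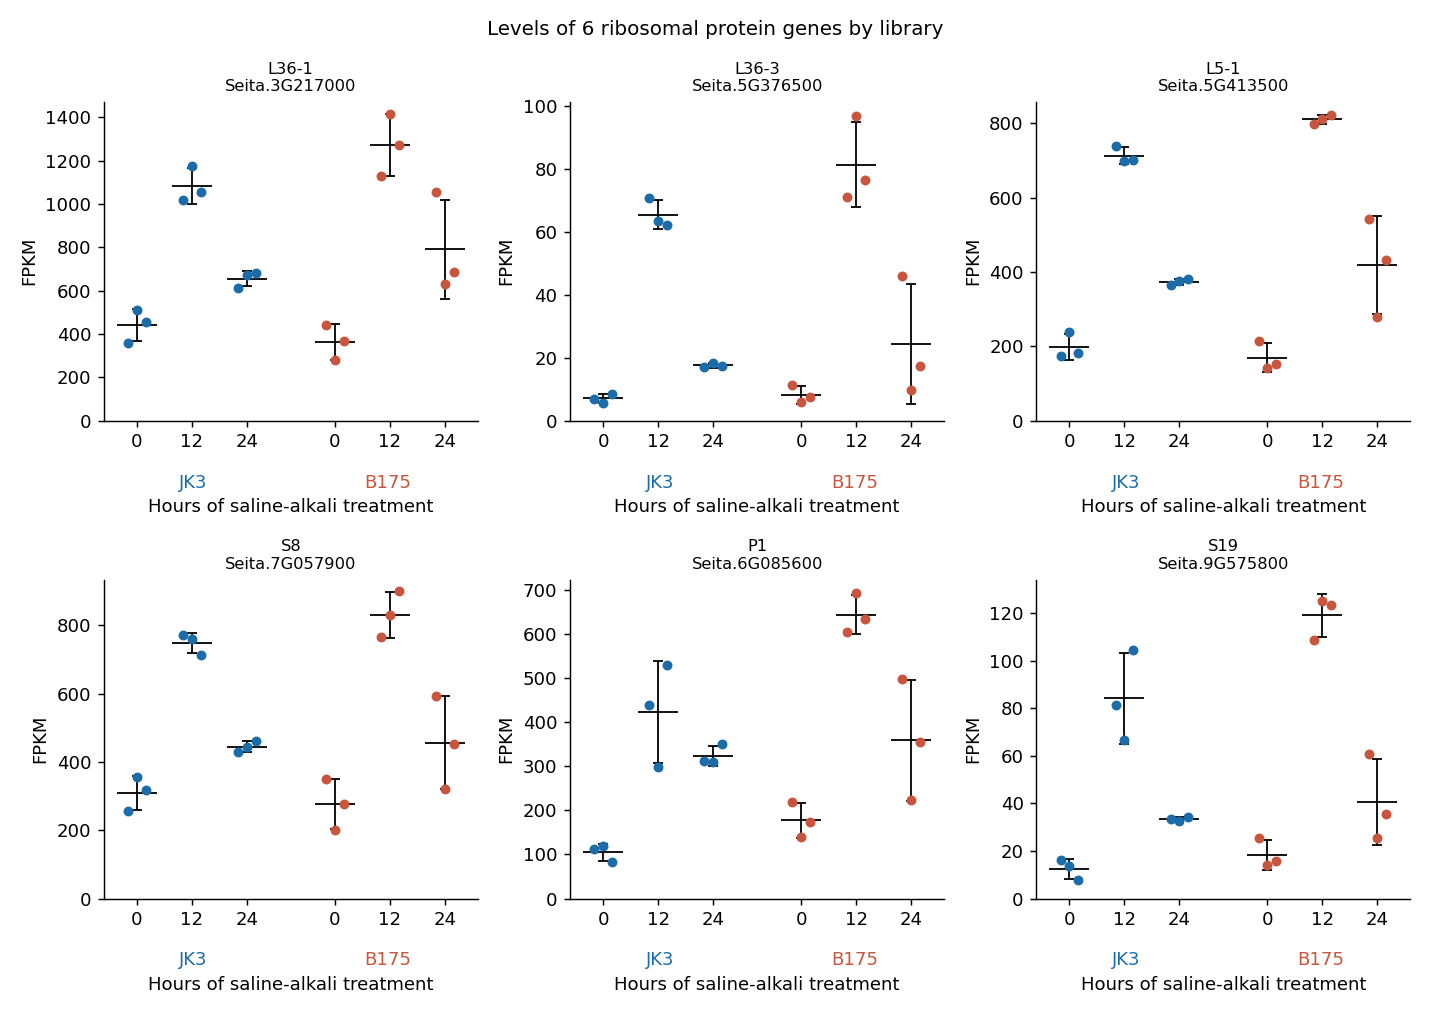
FPKM in each library (points) with group means and SD (bars, n = 3) for L36-1, L36-3, L5-1, S8, P1 and S19, for JK3 and B175 at 0, 12 and 24 h. In all 6 genes the 12 h libraries lie above the 0 h libraries of the variety, and L36-3 reaches 62.0 to 70.6 FPKM in J12 and 71.0 to 96.7 FPKM in B12.

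Among the proteins with well-known roles in assembly and signalling are S6, L5, L11 and L24. S6 is the small-subunit protein phosphorylated downstream of the TOR kinase, and both of its copies rose at 12 h in both varieties. Its more abundant copy (Seita.2G394600) had 299, 277 and 306 FPKM in J12 against 100.3, 124 and 104 FPKM in J0, and 309, 374 and 377 FPKM in B12 against 151, 86.0 and 116 FPKM in B0. The groups did not overlap in either variety, and the log2 fold changes were 1.42 ± 0.20 (SE, adjusted p = 2.26e-05) and 1.61 ± 0.20 (SE, adjusted p = 4.46e-06). L5 and L11 enter the large subunit together with the 5S rRNA. L5-1 (Seita.5G413500) had 738, 698 and 699.8 FPKM in J12 against 174, 238 and 182 FPKM in J0, and 798, 812 and 822 FPKM in B12 against 214, 141 and 152 FPKM in B0. Its log2 fold change was 1.86 ± 0.21 (SE, adjusted p = 2.11e-06) in JK3 and 2.28 ± 0.21 (SE, adjusted p = 1.55e-07) in B175. The other L5 copy (Seita.5G112300) lay at 0.776, 0.546 and 0.193 FPKM in J12 and 0.0243, 0.0253 and 0 FPKM in B12 and passed the test in neither variety. Both L11 genes rose, and the more abundant (Seita.7G232800) averaged 294 ± 32.0 FPKM in J12 against 95.5 ± 19.2 FPKM in J0, and 382 ± 8.42 FPKM in B12 against 101 ± 24.9 FPKM in B0 (SD, n = 3 each). L24 forms a bridge between the subunits. Its most abundant copy (Seita.5G358600) had the smallest change among the S6, L5, L11 and L24 genes named here, 0.93 ± 0.20 (SE, adjusted p = 0.00106) in JK3 and 1.07 ± 0.20 (SE, adjusted p = 0.000243) in B175. After scaling, the L24 change in JK3 was 0.36 ± 0.17 (SE, adjusted p = 0.0895) and no longer passed the test.

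The ubiquitin fusions were less uniform. S27a (Seita.7G270700), made like L40 as a fusion with ubiquitin, had 377, 402 and 384 FPKM in J12 against 107, 160.0 and 142 FPKM in J0. In B175 it had 335, 457 and 343 FPKM in B12 against 143, 77.6 and 97.0 FPKM in B0. The log2 fold changes were 1.52 ± 0.25 (SE, adjusted p = 8.7e-05) and 1.86 ± 0.25 (SE, adjusted p = 8.68e-06). Of the 8 tested L40 copies, 6 were DEGs and higher in J12 vs J0 and 4 in B12 vs B0, and all 8 fold changes were positive in both varieties. The abundant L40-2 copy had 259, 472 and 344 FPKM in J0, 822, 909 and 815 FPKM in J12 and 486, 536 and 588 FPKM in J24. It had 328, 207 and 253 FPKM in B0, 803, 909 and 833 FPKM in B12 and 709, 355 and 538 FPKM in B24. Its change at 12 h was 1.28 ± 0.25 (SE, adjusted p = 0.000399) in JK3 and 1.71 ± 0.25 (SE, adjusted p = 1.96e-05) in B175.

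All 9 stalk genes passed the adjusted p at 12 h in both varieties. P3 (Seita.4G241800) had 524, 577 and 479.6 FPKM in J12 against 110.3, 186 and 143 FPKM in J0, and 535, 615 and 509 FPKM in B12 against 147, 91.6 and 104 FPKM in B0. The log2 fold changes were 1.87 ± 0.24 (SE, adjusted p = 8.7e-06) and 2.29 ± 0.24 (SE, adjusted p = 6.92e-07). P0 (Seita.2G417900), the base of the stalk, changed by 1.32 ± 0.22 (SE, adjusted p = 0.00011) in JK3 and 1.45 ± 0.22 (SE, adjusted p = 3.4e-05) in B175. P1 (Seita.6G085600) had 113, 118 and 83.4 FPKM in J0, 440.5, 299 and 529.9 FPKM in J12 and 313, 310.2 and 351 FPKM in J24. It had 219, 139.5 and 173 FPKM in B0, 605, 694 and 636 FPKM in B12 and 498, 224 and 355 FPKM in B24. Its 3 libraries in J0 lay below the 3 in B0. At 12 h replicate 2 of JK3 was the lowest for P1, at 299 FPKM, and the difference from B12 did not pass the threshold (-0.64 ± 0.26 SE, adjusted p = 0.151).

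Few tested genes of the cytosolic set did not pass as higher at 12 h. Of the 217 tested genes without the mitochondrial and L18a-like ones, 203 passed the adjusted p and were higher in both varieties, 4 passed in JK3 alone and 2 in B175 alone. The 4, named after their values were seen, were copies of L40 (Seita.2G302900), S27a-1 (Seita.9G208900), L19-1 (Seita.2G181900) and L4 (Seita.2G107700). The 2 were copies of L4 (Seita.2G056800) and L10-1 (Seita.8G124200). Whether these 6 differed between the varieties is a separate test, given with the interactions. The other 8 passed as higher in neither variety and had low means, from 0.225 to 8.70 FPKM. The most abundant of them was L8-2 (Seita.5G191500), with 8.89, 13.3 and 8.84 FPKM in J12 against 8.97, 5.31 and 9.16 FPKM in J0, and 5.13, 7.60 and 7.67 FPKM in B12 against 5.90, 8.38 and 4.37 FPKM in B0. Not passing does not show that a level stayed the same. Of these 8, the L40 copy Seita.2G321300 had 18 fragments in J12 and 0 in J0. Against the fragment floor given above, it was 5.885-fold higher in J12. The S12 copy Seita.9G065100, with 12 in B12 and 0 in B0, was 4.04-fold higher in B12 on the same basis. The S18 copy Seita.2G055700, with 0 in J12 and 7 in J0, was 2.38-fold lower in J12. These ratios take the counts of 18, 12 and 7 as observed. They leave out the counting error of those counts and the spread between libraries, so they are not firm minima. Among 199 genes with a mean of at least 10 FPKM, 197 were higher in both varieties, and 178 were after scaling. Of the 5 tested genes described as mitochondrial, 1 was a DEG and higher in each variety, Seita.2G143900 in JK3 and Seita.4G243200 in B175, both described as L2. Of the 4 L18a-like genes, none was in J12 vs J0 and 1 (Seita.5G001900) was in B12 vs B0. With these classes left out, the counts were 195 of 217 in JK3 and 196 of 217 in B175.

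At 24 h the members were lower than at 12 h but remained above 0 h. In J24 vs J0, 86 members were DEGs and higher, where 5.36% of all genes were. In B24 vs B0, 58 were, where 10.2% of all genes were. None was a DEG and lower in either variety, where 2.06% of all genes in JK3 and 6.02% in B175 were. By the adjusted p alone, 152 members were higher in J24 vs J0, against 10.6% of all genes, and none was lower, against 6.06%. In B175, 171 were higher in B24 vs B0, against 21.0% of all genes. The median log2 fold change of the members was 0.88 in J24 vs J0 (0.03 for all genes) and 0.82 in B24 vs B0 (0.08 for all genes). With scaling, 78 members were DEGs in J24 vs J0, with a background of 5.10%, and 22 in B24 vs B0, with a background of 8.26%. None was a DEG and lower after scaling, with a background of 2.56% in JK3 and 8.46% in B175. In order of mean level, 206 of the 217 cytosolic genes in JK3 and 204 in B175 were lowest at 0 h, intermediate at 24 h and highest at 12 h. The share of all genes in this order is not given here. Of the 226 tested members in JK3, the highest mean was at 12 h for 214 as deposited and 159 after scaling. It was at 24 h for 12 as deposited and 65 after scaling. Of all genes in JK3, 60.86% as deposited and 38.42% after scaling had the highest mean at 12 h. At 24 h the shares were 16.89% and 26.01%, so scaling moved all genes towards 24 h as well. In B175 the highest mean was at 12 h for 213 as deposited and 199 after scaling, against 57.7% and 36.8% of all genes.

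The B175 count at 24 h depended on single libraries. The summed level was 48484 FPKM in replicate 1 of B24 and 25517 FPKM in replicate 2, which lay close to the 24169 FPKM of replicate 1 of B0. Without replicate 2 of B24, 140 members were DEGs and higher in B24 vs B0, and without replicate 1 of B24, 16 were. Without replicate 1 of B0 the count was 117, and without replicate 2 of B0 it was 25. The median log2 fold change ranged from 0.62 to 1.07 in these fits and stayed above 0. In JK3 the count of J24 vs J0 ranged from 69 to 108 when each library was left out. The leaf markers of replicate 2 of B24 summed to 43040 FPKM, against 20563 and 23220 FPKM in the other B24 libraries, and the part of this in the result was not tested.

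Members described above at 12 h differed in whether they still passed at 24 h. S20 (Seita.4G023300) had 46.3, 43.8 and 54.1 FPKM in J24 against 9.36, 14.1 and 13.1 FPKM in J0, a log2 fold change of 1.91 ± 0.26 (SE, adjusted p = 0.000752). In B175 it had 81.6, 31.2 and 55.4 FPKM in B24 against 26.4, 19.9 and 15.9 FPKM in B0, a change of 1.32 ± 0.26 (SE, adjusted p = 0.0012). The groups did not overlap in either variety. With the B175 groups alone in the fit, the adjusted p in B24 vs B0 was 0.0537 for S20 and 0.0879 for P1. P1 changed by 1.64 ± 0.26 (SE, adjusted p = 0.00159) in J24 vs J0 and by 0.96 ± 0.26 (SE, adjusted p = 0.0103) in B24 vs B0, where it missed the threshold without replicate 2 of B0 or replicate 1 of B24 (adjusted p = 0.0525 and 0.0674). The abundant S8 had 429.7, 444 and 460.5 FPKM in J24 against 255, 355 and 318 FPKM in J0, where the change of 0.53 ± 0.22 (SE, adjusted p = 0.108) did not pass the test. L36-1 likewise did not pass in JK3 (0.58 ± 0.22 SE, adjusted p = 0.0764) and passed in B175 (1.11 ± 0.22 SE, adjusted p = 0.0011).

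The comparison of 24 h with 12 h gave mainly lower members. In J24 vs J12, 29 members were DEGs and lower, where 18.7% of all genes were, and 1 was higher, where 7.30% of all genes were. In B24 vs B12, 64 were DEGs and lower, where 18.8% of all genes were, and 1 was higher, where 7.86% of all genes were. The members' share of lower DEGs in JK3 was thus below that of all genes. With no limit on the fold, 139 members passed the adjusted p and were lower in J24 than in J12, against 37.7% of all genes, and 185 were lower in B24 than in B12, against 37.8%. After scaling, 29 members passed the adjusted p and were lower in JK3 and 5 were higher, against 18.6% and 19.1% of all genes, with a median log2 fold change of -0.18. In B175, 69 were lower and 5 higher after scaling, against 19.9% and 19.2%, with a median of -0.41. When the FPKM of genes with the same protein name were summed, 58 of the 79 cytosolic names passed the adjusted p and were lower in JK3 and 77 in B175, and after scaling 1 and 26 were. With the limit on the fold and after scaling, 3 members were DEGs and lower in JK3, where 9.60% of all genes were, and they were L36-3, L7a-2 and L17 (Seita.6G112100). After scaling, 8 were in B175, where 10.3% of all genes were. Without replicate 1 of B24, 147 members were DEGs and lower in B24 vs B12, and without replicate 2 of B24, 21 were. The single member that was a DEG and higher in both comparisons was L10-1 (Seita.8G124200).

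L10 is a protein of the large subunit that joins late in its assembly, and its L10-1 gene on chromosome 8 departed from the other members. It had 84.5, 32.3 and 55.8 FPKM in J0, 31.6, 28.0 and 61.5 FPKM in J12 and 199.9, 141 and 219.7 FPKM in J24. It had 4.03, 14.8 and 11.6 FPKM in B0, 48.4, 40.4 and 31.2 FPKM in B12 and 339, 141 and 265 FPKM in B24. The 24 h libraries were the highest in both varieties, without overlap with 0 or 12 h. Among the tested genes of the cytosolic set with a mean of at least 1 FPKM, 6 had a higher mean at 24 h than at 12 h in both varieties, and this was the most abundant of them. The others were copies of S18 (Seita.2G055700), P2A, L40 (Seita.2G302900), L19-1 (Seita.3G034600) and L35a-1 (Seita.3G153000). In J24 vs J0 the log2 fold change of the chromosome 8 gene was 1.76 ± 0.44 (SE, adjusted p = 0.0143) and in B24 vs B0 it was 4.55 ± 0.44 (SE, adjusted p = 2.32e-06), the largest of any member in that comparison on the log2(FPKM + 1) scale. At 12 h the gene rose in B175 (2.01 ± 0.44 SE, adjusted p = 0.000863) and did not pass the threshold in JK3 (-0.48 ± 0.44 SE, adjusted p = 0.378), where limma's voom on recovered fragments gave -1.06 (adjusted p = 0.0394). The call in J24 vs J0 was lost without replicate 2 of J0 or replicate 3 of J24 (adjusted p = 0.0521 and 0.0636). At 0 h it was higher in JK3 than in B175, by 2.45 ± 0.44 (SE, adjusted p = 0.000846). At 12 and 24 h the varieties overlapped.

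The most abundant of the other 3 L10 genes, L10 on chromosome 3 (Seita.3G099700), had 154, 173 and 139 FPKM in J0, 458, 374 and 519 FPKM in J12 and 351, 331 and 344 FPKM in J24. It had 225, 195 and 211 FPKM in B0, 531, 541 and 453 FPKM in B12 and 375, 245 and 336 FPKM in B24. Its 12 h libraries were the highest in each variety, where those of L10-1 on chromosome 8 were not. As a share of the summed FPKM of the 4 L10 genes, L10-1 of chromosome 8 made up 19.1% ± 7.98 in J0, 5.89% ± 1.81 in J12 and 27.4% ± 4.05 in J24 (SD, n = 3 each). The share was 3.17% ± 1.99 in B0, 5.24% ± 0.943 in B12 and 33.7% ± 4.84 in B24. The summed L10 level did not differ past the threshold between J0 and B0 (log2 fold change -0.16 ± 0.20 SE, adjusted p = 0.601).

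**Figure D4:**
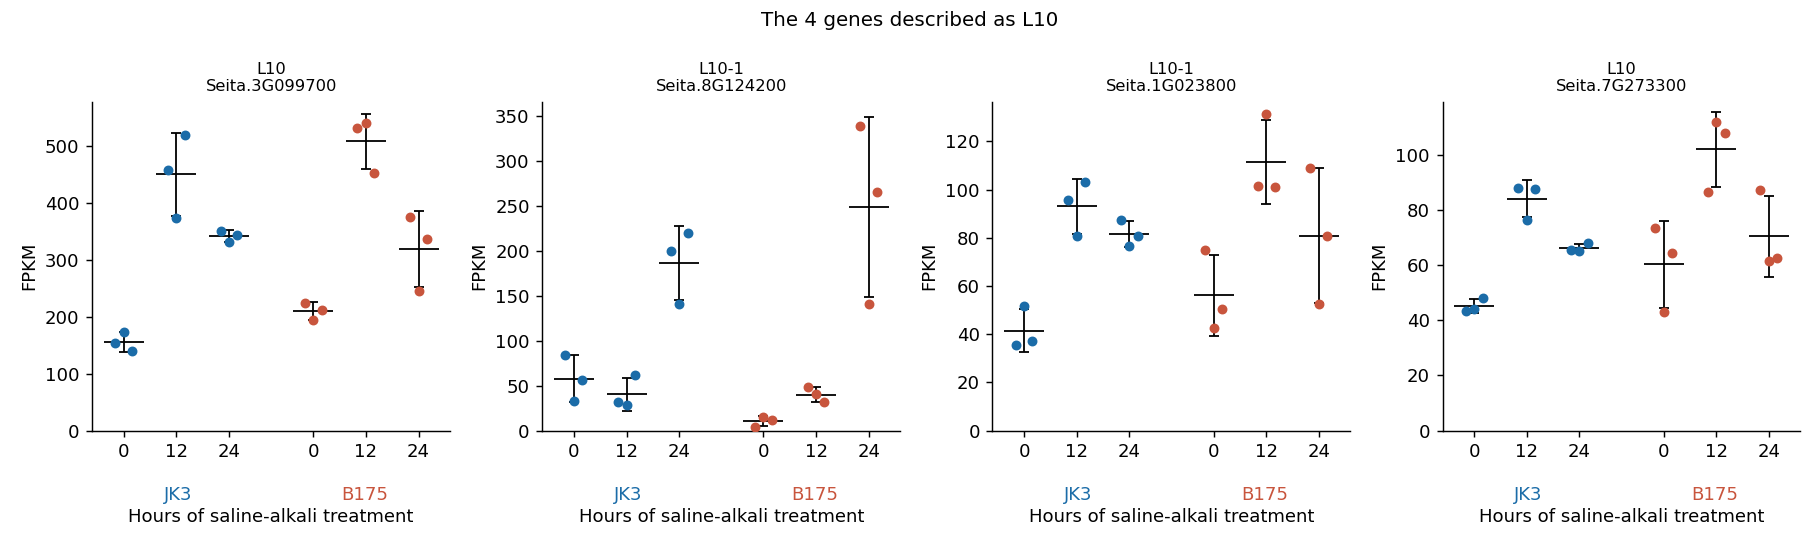
FPKM of the 4 genes described as L10 in each library (points) with group means and SD (bars, n = 3), for JK3 and B175 at 0, 12 and 24 h. L10-1 of chromosome 8 (Seita.8G124200) reaches 141 to 219.7 FPKM in J24 and 141 to 339 FPKM in B24, while L10 of chromosome 3 is highest at 12 h.

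Some minor copies had almost no fragments at 0 h and were detected at 12 and 24 h. P2A (Seita.2G097600) had 0, 0 and 0.384 FPKM in J0, 5.36, 6.25 and 2.89 FPKM in J12 and 1.13, 9.43 and 19.3 FPKM in J24. It had 0.257, 0 and 0.127 FPKM in B0, 2.78, 3.77 and 3.13 FPKM in B12 and 12.3, 1.08 and 12.2 FPKM in B24. At 24 h it was low in replicate 1 of J24 and in replicate 2 of B24 and high in the other 24 h libraries. The log2 fold change was 2.78 ± 0.69 (SE, adjusted p = 0.0139) in J24 vs J0 and 2.67 ± 0.69 (SE, adjusted p = 0.00745) in B24 vs B0, on a scale that understates the change of low genes. Without replicate 3 of J24 the change in JK3 was 2.08 (adjusted p = 0.0803). L40 (Seita.2G302900) showed the same order of libraries. It had 0.405, 7.99 and 21.7 FPKM in J24 against 0, 0 and 0 FPKM in J0, and 13.3, 1.03 and 13.2 FPKM in B24 against 0, 0 and 0.425 FPKM in B0. With no fragment in J0, it was at least 166-fold higher in J24 than in J0, against a floor of 3 fragments over the group. Its log2 fold change in J24 vs J0 was 2.72 ± 0.79 (SE, adjusted p = 0.0291). The call was lost when any single J0 library, replicate 2 of J24 or replicate 3 of J24 was left out (adjusted p of at most 0.153). In B24 vs B0 the change was 2.73 ± 0.79 (SE, adjusted p = 0.0148), and the call was lost without replicate 1 or replicate 3 of B24 (adjusted p = 0.0778 and 0.0692). With only the compared groups in the fit, the P2A and L40 calls at 24 h missed the threshold in both varieties (adjusted p of 0.0501 to 0.132). Another copy, L40 (Seita.2G183600), had 0.681, 5.04 and 8.60 FPKM in J24 against 0, 0 and 0.247 FPKM in J0, a change of 2.10 ± 0.58 (SE, adjusted p = 0.023). This call too was lost when any single J0 library, replicate 2 of J24 or replicate 3 of J24 was left out (adjusted p of at most 0.123).

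Between the varieties few members were called. In J0 vs B0, 3 members were DEGs and higher in JK3, where 6.78% of all genes were, and 9 were lower, where 6.02% of all genes were. In J12 vs B12 the counts were 1 higher and 5 lower, where 3.97% and 2.38% of all genes were called. In J24 vs B24 they were 1 higher and 4 lower, where 2.28% of all genes were called in each direction. The 3 higher in J0 were L4 (Seita.2G107700), L10-1 (Seita.8G124200) and an L18a-like gene (Seita.5G001900). The same L4 copy was the 1 higher at 12 and 24 h. Lower at all 3 times were S18 (Seita.2G055700), L4 (Seita.2G056200) and L19-1 (Seita.2G181800 and Seita.3G034600), and the fifth lower at 12 h was L17 (Seita.6G222100), named after its values were seen. By the adjusted p alone, 9 members were higher and 23 lower in J0 vs B0, against 14.4% and 11.8% of all genes. In J12 vs B12 the counts were 2 higher and 6 lower, against 5.88% and 4.24%, and in J24 vs B24 they were 1 higher and 4 lower, against 3.22% and 3.63%. After scaling, 9 of the 226 members were higher and 45 lower in J0 vs B0, against 12.7% and 15.7% of all genes. In J12 vs B12 the scaled counts were 1 and 13, against 4.65% and 3.66%, and in J24 vs B24 they were 2 and 4, against 3.74% and 3.6%. The median log2 fold change of the members was -0.16 in J0 vs B0, -0.26 in J12 vs B12 and -0.07 in J24 vs B24. At 12 h, 121 of the 226 members had all 3 JK3 libraries below all 3 B175 libraries, where 17.9% of all genes did. Most of these did not pass the limma test, whose counts are given above. The summed level at 12 h was 49087 to 55360 FPKM in JK3 and 58607 to 66732 FPKM in B175.

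The largest difference at 0 h was in a low copy of L4. L4 (Seita.2G056200), a copy of a protein that lines the peptide tunnel, had 0, 0 and 0.13 FPKM in J0, 0, 0 and 0 FPKM in J12 and 0.573, 0 and 0 FPKM in J24. It had 6.39, 7.89 and 4.63 FPKM in B0, 4.33, 5.05 and 4.67 FPKM in B12 and 2.19, 5.46 and 4.14 FPKM in B24. A different L4 copy (Seita.2G107700) showed the opposite pattern. It had 1.91, 2.88 and 3.01 FPKM in J0, 4.53, 7.90 and 4.25 FPKM in J12 and 2.16, 2.55 and 3.10 FPKM in J24. It had 0.0318, 0 and 0.0314 FPKM in B0, 0.351, 0.166 and 0 FPKM in B12 and 0.0668, 0 and 0 FPKM in B24. In J0 vs B0 the log2 fold change was -2.79 ± 0.24 (SE, adjusted p = 9.34e-07) for the first copy and 1.80 ± 0.20 (SE, adjusted p = 1.19e-05) for the other. The first copy was not detected in J12 and was at least 36.03-fold lower there than in B12, against a floor of 3 fragments over the group. The abundant L4-1 copies (Seita.2G055300 and Seita.9G056000) did not pass the threshold in J0 vs B0, with -0.26 ± 0.27 (SE, adjusted p = 0.529) and 0.42 ± 0.23 (SE, adjusted p = 0.201).

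Copies of S18 and L19 also differed between the varieties. The low S18 copy (Seita.2G055700), of a protein of the head of the small subunit, had 0.555, 0.105 and 0.105 FPKM in J0, 0, 0 and 0 FPKM in J12 and 0.694, 0.209 and 0.622 FPKM in J24. It had 2.84, 3.35 and 2.49 FPKM in B0, 2.75, 3.75 and 2.62 FPKM in B12 and 3.43, 6.61 and 3.86 FPKM in B24. It was lower in JK3 at each time, with a log2 fold change of -1.65 ± 0.22 (SE, adjusted p = 5.81e-05) at 0 h, and it was at least 28.9-fold lower in J12 than in B12 against the same floor. An abundant S18 copy (Seita.2G048400) had 88.2, 90.7 and 76.7 FPKM in J0 against 158, 105 and 130.3 FPKM in B0, without overlap, a change of -0.60 ± 0.20 (SE, adjusted p = 0.0349). After scaling its change was -0.72 ± 0.17 (SE, adjusted p = 0.00505), and without scaling the call was lost on leaving out any of 5 of the 6 libraries (all but replicate 2 of B0, highest adjusted p 0.141). L19 takes part in a bridge between the subunits, and 3 of its 4 copies were lower in J0 than in B0. The lowest of these copies (Seita.3G034600) had 1.44, 1.31 and 0.807 FPKM in J0 against 4.73, 4.72 and 5.85 FPKM in B0, a log2 fold change of -1.49 ± 0.24 (SE, adjusted p = 0.000357). L19-1 (Seita.2G181800) had 3.75, 2.58 and 2.63 FPKM in J0 against 15.2, 9.74 and 9.53 FPKM in B0, a change of -1.63 ± 0.30 (SE, adjusted p = 0.000957). Its neighbour by identifier (Seita.2G181900) had 16.7, 29.4 and 8.92 FPKM in J0 against 53.0, 30.1 and 48.5 FPKM in B0, a change of -1.32 ± 0.38 (SE, adjusted p = 0.0187) that missed the threshold without replicate 1 or 3 of B0 or replicate 3 of J0 (adjusted p of 0.0671, 0.0661 and 0.0969). The abundant L19-1 copy (Seita.4G043900) had 138 ± 26.6 FPKM in J0 and 150.2 ± 32.3 FPKM in B0 (SD, n = 3 each), which overlapped.

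S29, a zinc-binding protein of the small subunit, had 3 copies, of which 1 passed the test between the varieties at 0 h without scaling. The copy Seita.3G354500 had 35.1, 42.3 and 20.01 FPKM in J0 against 89.6, 57.1 and 81.3 FPKM in B0, a change of -1.24 ± 0.32 (SE, adjusted p = 0.00915). The copy Seita.9G073900 had 133, 202 and 133 FPKM in J0 against 152, 95.0 and 107 FPKM in B0, a change of 0.40 ± 0.23 (SE, adjusted p = 0.227) that did not pass the test. The third copy (Seita.8G203800) had 172, 189 and 96.9 FPKM in J0 against 286, 199 and 249 FPKM in B0, without overlap, a change of -0.72 ± 0.28 (SE, adjusted p = 0.0723). After scaling the third copy's change was -0.84 ± 0.26 (SE, adjusted p = 0.0222) and passed, so the count of copies depends on the scale. At 12 h neither of the first 2 copies passed the threshold between the varieties, with -0.64 ± 0.32 (SE, adjusted p = 0.243) and -0.10 ± 0.23 (SE, adjusted p = 0.875). At that time the first copy had 189, 115 and 202 FPKM in J12 and 248, 276 and 246 FPKM in B12.

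**Figure D5:**
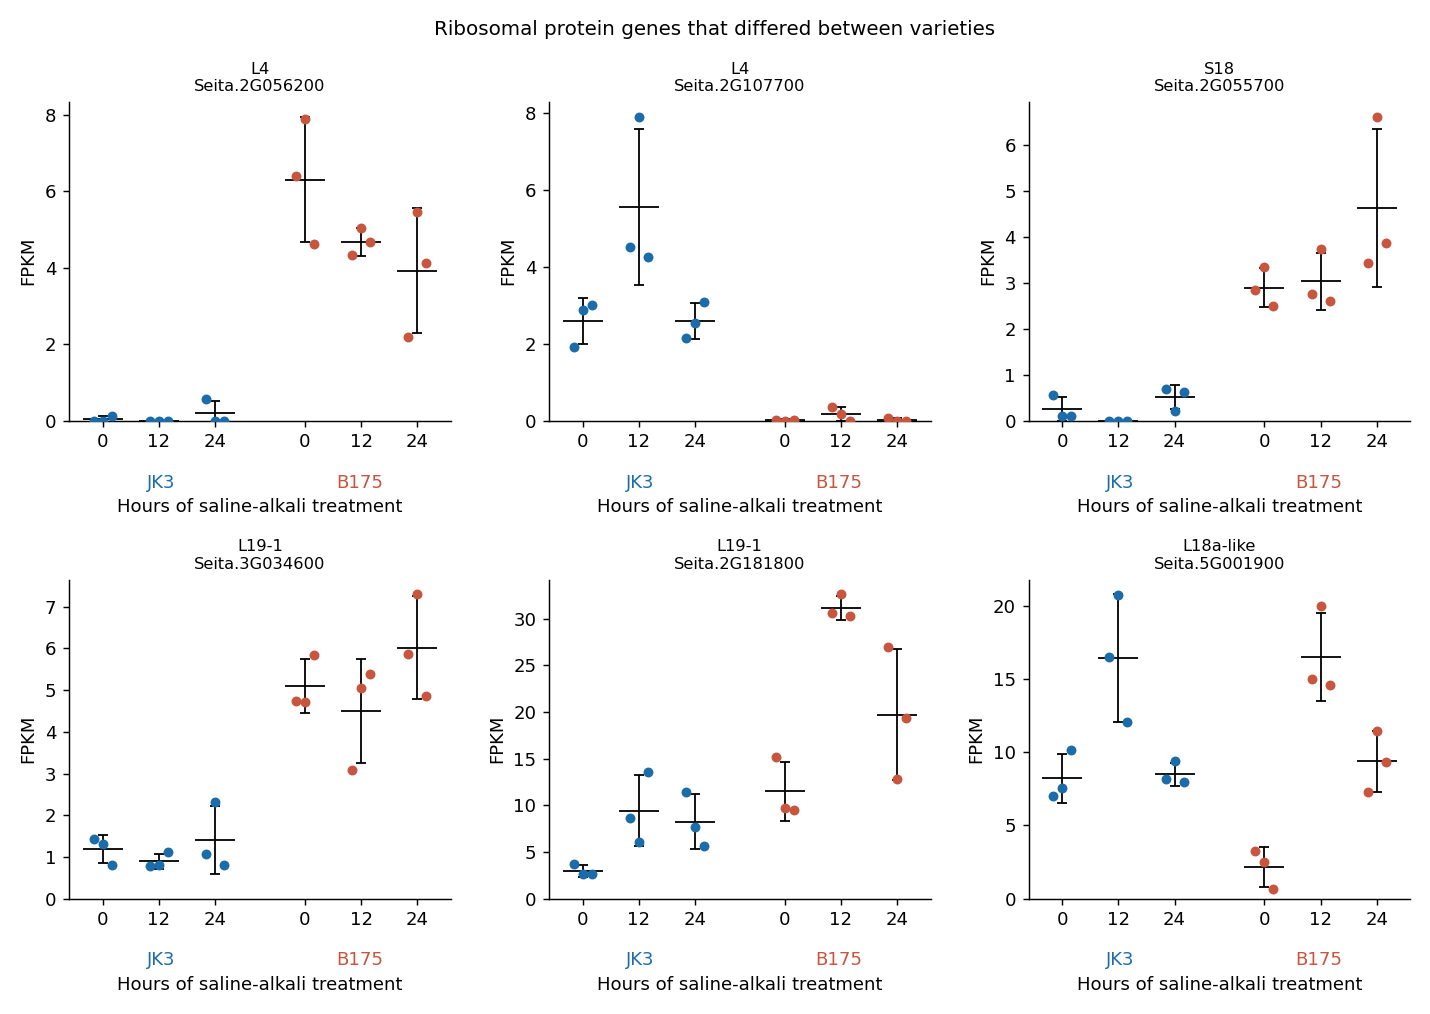
FPKM in each library (points) with group means and SD (bars, n = 3) for 6 members that differed between JK3 and B175 at 0 h. L4 (Seita.2G056200) and S18 (Seita.2G055700) lie at or near 0 in JK3 and at 2.19 to 7.89 FPKM in B175, and L4 (Seita.2G107700) lies at 1.91 to 7.90 FPKM in JK3 and at or near 0 in B175.

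When the FPKM of genes with the same protein name were summed, no name passed the DEG threshold between the varieties. Of the 84 name sums, 0 were DEGs in J0 vs B0, J12 vs B12 or J24 vs B24 in limma. By the adjusted p alone, 4 of the 79 cytosolic names differed in J0 vs B0 (L10a higher in JK3, and P1, S14 and S19 lower), and 0 did at 12 or 24 h. Of all genes, 14.4% were higher and 11.8% lower in J0 vs B0 by the adjusted p alone, and after scaling 12.7% and 15.7% were. For the sums of L4, L19, S18 and S29 the log2 fold changes in J0 vs B0 were 0.03 ± 0.25, -0.39 ± 0.21, -0.38 ± 0.20 and -0.38 ± 0.26 (SE), with adjusted p values of 0.952, 0.197, 0.179 and 0.301. After scaling, the L19 and S18 sums passed the adjusted p, with changes of -0.50 ± 0.18 (SE, adjusted p = 0.0462) and -0.50 ± 0.17 (SE, adjusted p = 0.0363), among 1 cytosolic name that was higher and 11 that were lower in JK3. At 12 h against 0 h, all 79 cytosolic names were DEGs and higher in each variety, where 24% of all genes in JK3 and 28.0% in B175 were. After scaling, 34 of them were in JK3 and 56 in B175, where 12.7% and 15.3% of all genes were. All 79 passed the adjusted p in both after scaling. At 24 h against 0 h, 27 names were DEGs and higher in JK3 and 15 in B175, where 5.36% and 10.2% of all genes were. After scaling 19 and 2 were, where 5.10% and 8.26% of all genes were, so the 2 in B175 lay below that share.

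The difference between the varieties in the change from 0 h was tested as an interaction, which is the change in JK3 minus the change in B175. Of the 226 members, 2 passed the adjusted p for 12 h, both with a smaller change in JK3, where 3.58% of all genes passed in that direction. For 24 h, 3 passed with a smaller change in JK3, where 2.0% of all genes did. None passed in the other direction, where 2.28% of all genes at 12 h and 0.520% at 24 h did. L10-1 of chromosome 8 gave an interaction of -2.50 ± 0.62 (SE, adjusted p = 0.0276) at 12 h and -2.79 ± 0.62 (SE, adjusted p = 0.025) at 24 h. L18a-like (Seita.5G001900) gave -1.67 ± 0.42 (SE, adjusted p = 0.0279) at 12 h and -1.75 ± 0.42 (SE, adjusted p = 0.0348) at 24 h. It had 7.01, 7.53 and 10.1 FPKM in J0, 16.5, 20.8 and 12.04 FPKM in J12 and 8.18, 9.39 and 7.93 FPKM in J24. It had 3.26, 2.52 and 0.668 FPKM in B0, 15.0, 19.96 and 14.6 FPKM in B12 and 7.31, 11.5 and 9.33 FPKM in B24. The B175 libraries at 0 h were the lowest, and at 12 and 24 h the varieties overlapped.

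P2B (Seita.3G224100), the most abundant P2 gene of the stalk, had 270.5, 279 and 301 FPKM in J0, 512, 498 and 496 FPKM in J12 and 331, 304 and 314 FPKM in J24. It had 198, 180.5 and 186 FPKM in B0, 479, 559.9 and 489 FPKM in B12 and 538, 453 and 356 FPKM in B24. Its interaction at 24 h was -1.07 ± 0.21 (SE, adjusted p = 0.0113). In B24 vs B0 it rose by 1.23 ± 0.15 (SE, adjusted p = 1.5e-05), and in J24 vs J0 its change was 0.16 ± 0.15 (SE, adjusted p = 0.501). The call at 24 h held with each of the 12 libraries left out (adjusted p of at most 0.0389). The calls of L10-1 were lost without any of 7 of the 12 libraries at 12 h and 6 of the 12 at 24 h, with an adjusted p of at most 0.0755. Those libraries were replicate 1 of B0, replicates 1 and 2 of B12, replicates 1 and 3 of J0 and replicates 1 and 2 of J12 for 12 h. For 24 h they were replicate 1 of B0, replicates 1 and 3 of B24, replicates 1 and 3 of J0 and replicate 2 of J24. The calls of the L18a-like gene were lost without any of replicate 3 of B0, replicates 1 and 2 of B12, replicate 3 of J0 and replicates 1 and 3 of J12 at 12 h. At 24 h they were lost without replicate 3 of B0, replicate 3 of B24, replicate 3 of J0 or any J24 library, with an adjusted p of at most 0.0881. With only the 4 compared groups in the fit, none of the 24 h calls passed (adjusted p = 0.0519 for P2B, 0.0762 for L10-1 and 0.103 for the L18a-like gene). After scaling, the L18a-like call at 24 h was lost (adjusted p = 0.0543) and L13a-3 (Seita.2G002600) passed in the other direction (adjusted p = 0.034).

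Other genes of the translation machinery were set beside the members by their descriptions. Of 76 tested genes of ribosome biogenesis, which process rRNA and assemble the subunits, 61 were DEGs and higher in J12 vs J0 and 59 in B12 vs B0. Their median log2 fold changes were 1.68 and 1.80. Their summed level was 2550 to 2751 FPKM in J12 against 796 to 894 FPKM in J0, and 2868 to 3108 FPKM in B12 against 651 to 1033 FPKM in B0. At 24 h it was 1034 to 1190 FPKM in J24 and 781 to 1510 FPKM in B24. Of 21 tested cytosolic elongation factors, 13 and 16 were DEGs and higher at 12 h, with medians of 1.11 and 1.32. Of 55 tested initiation factors, 20 and 23 were, with medians of 0.89 and 0.90. The ribosomal proteins of chloroplasts and mitochondria, 115 tested genes, had 59 and 44 DEGs that were higher and medians of 1.05 and 0.65, for J12 vs J0 and then B12 vs B0 in each case. Of all genes, 24% were DEGs and higher in J12 vs J0 and 28.0% in B12 vs B0, and their medians were 0.37 and 0.43. These counts, medians and sums of the other gene lists are as deposited, and scaled ones are not given here. Scaling lowered the median change of the 84 protein name sums of the members from 1.75 to 1.09 in B12 vs B0. A median of 0.65 as deposited therefore does not show a rise on the scaled values. In J24 vs J0, 8 biogenesis genes were DEGs and higher, where 5.36% of all genes were, and in B24 vs B0, 11 were, where 10.2% of all genes were.

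As deposited, marker sums also changed at 12 h, the leaf markers in the opposite direction to the members. The leaf markers, 34 genes of the Rubisco small subunit, chlorophyll a-b binding proteins and enzymes of the C4 cycle, summed to 5137 to 5738 FPKM in J12 against 30453 to 33311 FPKM in J0. They summed to 7984 to 11295 FPKM in B12 against 47541 to 57929 FPKM in B0, and to 19013 to 25396 FPKM in J24 and 20563 to 43040 FPKM in B24. Of the 33 tested leaf markers, 22 were DEGs and lower at 12 h in each variety, and 30 of the 34 were above 0 in every library. The 54 markers of dividing cells, such as cyclins and histones, summed to 3052 to 3401 FPKM in J12 against 2840 to 2888 FPKM in J0. In B175 they summed to 3015 to 3686 FPKM in B12 against 2222 to 2507 FPKM in B0. The median-ratio factors, by which each library is divided, were 1.317 to 1.346 in J12 against 0.8673 to 0.9288 in J0. In B175 they were 1.269 to 1.334 in B12 against 0.7615 to 0.8915 in B0. Divided by these factors, the dividing-cell sums were lower in J12 than in J0, and those of B12 and B0 overlapped. At 24 h the dividing-cell sums as deposited were 2763 to 3324 FPKM in J24 and 2987 to 4658 FPKM in B24. The 3 root markers, casparian strip membrane proteins, summed to at most 1.18 FPKM in any library. The part of the leaf and dividing-cell genes in the change of the members was not tested.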

How the data were processed

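RNA was sequenced from leaves of JK3 and B175 seedlings, with 3 libraries in each of 6 groups of variety and time, as named in the labels. The authors deposited FPKM values per gene for the 18 libraries. The submitters' processing notes name fastp, HISAT2, HTSeq, DESeq2 and R 3.2.0 without parameters, and the build they list is a mouse build, which the Setaria identifiers do not match. Whole fragment numbers were recovered from the FPKM steps for all 29108 genes, with 34738627 to 38798886 fragments per library. Intervals and floors cover counting error only, and a floor covers that of the group without fragments alone. The count of the other group was taken as observed.

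Genes with a mean of at least 0.1 FPKM were tested on log2(FPKM + 1) with limma 3.58.1 in R 4.3.3, in a single fit of the 6 group means over the 18 libraries with a mean-variance trend and Benjamini-Hochberg adjustment over all 23824 genes. The script was tested on simulated data. Alternatives were other pseudocounts and filters, median-ratio scaling, quantile normalization, the compared groups alone, a replicate block, voom on recovered fragments, sums by protein name and leaving out each library. Named genes were the most abundant members, those with the largest changes, those differing between varieties, copies of names whose copies diverged at 0 h, and members with well-known roles. Genes ranked by a change or a variety difference had an adjusted p under 0.05 and a mean of at least 1 FPKM. Apart from the interactions, they also had no overlap between the compared groups. The members and lists were chosen with earlier results of these data known. No sequences are shown, because 0 members matched the reference identifiers.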

Additional observations from a re-analysis of the deposited data

Results flagged for a closer look

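The change from 0 h differed between JK3 and B175 for 3 ribosomal protein genes, by limma's test of the interaction (the change in JK3 minus the change in B175). At each time the share of members that passed lay below the share of all genes that passed in the same direction, as given above. L10-1 of chromosome 8 (Seita.8G124200) had an interaction of -2.50 ± 0.62 (SE, adjusted p = 0.0276) at 12 h and -2.79 ± 0.62 (SE, adjusted p = 0.025) at 24 h. After median-ratio scaling the values were -2.43 and -2.69. The L18a-like gene Seita.5G001900, set apart above from the cytosolic genes, had an interaction of -1.67 ± 0.42 (SE, adjusted p = 0.0279) at 12 h and -1.75 ± 0.42 (SE, adjusted p = 0.0348) at 24 h. After scaling the values were -1.66 and -1.71, with an adjusted p of 0.0403 at 12 h and 0.0543 at 24 h. P2B (Seita.3G224100) had an interaction of -1.07 ± 0.21 (SE, adjusted p = 0.0113) at 24 h, and -0.95 (adjusted p = 0.0217) after scaling. All 3 genes had 0 h levels in JK3 above those in B175, without overlap of the libraries. With the compared groups fitted alone, the 3 calls at 24 h were lost (adjusted p = 0.0762 for L10-1, 0.103 for the L18a-like gene and 0.0519 for P2B), and both calls at 12 h passed. On leaving out each of the 12 libraries of a comparison in turn, the L10-1 call was lost in 7 cases at 12 h and 6 at 24 h, and the L18a-like call in 6 at each time. The P2B call at 24 h was lost in 0 of the 12 cases.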

How the results depend on the processing

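At 12 h against 0 h every alternative kept the members higher as a set, and at 24 h against 0 h as well, while the number of DEGs moved with the scale. Single members went the other way, such as the genes given above that passed as lower in B12 vs B0 after scaling. With median-ratio scaling, alone or with the replicate block, the counts were 106 for J12 vs J0 (196 as reported), 124 for B12 vs B0 (198), 22 for B24 vs B0 (58), 4 for J24 vs J12 (30) and 11 for B24 vs B12 (65). With voom on recovered fragments they were 109, 126, 24, 6 and 13 for the same comparisons, and 1 for the interaction at 12 h (2). Quantile normalization gave 18 for B24 vs B0. With the compared groups alone the count was 26 for B24 vs B0, 3 for J24 vs B24 (5) and 0 for the interaction at 24 h (3). By the adjusted p alone the counts were 152 for J24 vs J0 (86), 171 for B24 vs B0, 141 for J24 vs J12, 186 for B24 vs B12 and 32 for J0 vs B0 (12). Sums by protein name, which have 84 features, gave 80 in J12 vs J0 and B12 vs B0, 27 in J24 vs J0, 15 in B24 vs B0, 1 in J24 vs J12, 13 in B24 vs B12 and 0 in the 3 variety comparisons and both interactions. The cause of these moves was not tested, and the sums also have fewer features.

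When a single library was dropped at a time, the counts ran from 192 to 199 for J12 vs J0, 191 to 205 for B12 vs B0, 69 to 108 for J24 vs J0, 25 to 35 for J24 vs J12, 9 to 18 for J0 vs B0, 5 to 6 for J12 vs B12 and 4 to 5 for J24 vs B24. They ran from 16 to 140 for B24 vs B0, where 16 is without replicate 1 of B24, 140 without replicate 2 of B24, 117 without replicate 1 of B0 and 25 without replicate 2 of B0. They ran from 24 to 148 for B24 vs B12, where 24 is without replicate 2 of B24 and 148 without replicate 1 of B24. The interactions ran from 0 to 2 at 12 h and from 1 to 4 at 24 h. Among values of named genes, 1566 kept their call, 122 lost it, 22 gained it and 0 reversed.

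The replicate numbers did not pair the samples. The mean correlation of same-numbered deviations was between -0.0582 and 0.198 over the 9 comparisons, and no comparison had every pair above 0.1. With the replicate block the counts were 195 for J12 vs J0, 198 for B12 vs B0, 85 for J24 vs J0, 58 for B24 vs B0, 30 for J24 vs J12, 65 for B24 vs B12, 12 for J0 vs B0, 6 for J12 vs B12, 5 for J24 vs B24, and 2 and 3 for the interactions. Copies below a few FPKM rest on few fragments, and FPKM + 1 understates their change.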
